A study of Mus musculus with 8 samples.

Results

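The ErbB family of receptor tyrosine kinases and the neuregulins that bind to it were examined in the embryonic medial ganglionic eminence (MGE) of WT and Nkx2-1cKO mice. The members are 8 genes, the receptors Egfr, Erbb2, Erbb3 and Erbb4 and the ligands Nrg1, Nrg2, Nrg3 and Nrg4, taken through the RefSeq accession that the array design gives each probe. This gave 18 probes for 7 of the 8 genes, out of 41174 non-control probes, and Nrg2 was not analysed here. Microdissected MGE at E13.5 was profiled on 1-colour Agilent whole mouse genome arrays, 1 sample per array, in 4 WT and 4 Nkx2-1cKO samples on a C57BL/6 background. The labels give the WT samples as Nkx2-1flox/+ without Olig2tva-cre and the Nkx2-1cKO samples as Nkx2-1flox/+ with Olig2tva-cre, so that both groups carry a floxed allele. Only the Nkx2-1cKO samples carry the Cre allele, so its effects and those of Nkx2-1 loss cannot be told apart. The methods of the study describe a homozygous floxed strain for the mutant, and the Cre is driven from the Olig2 locus, which limits recombination to cells that express Olig2 and their progeny. No label says that the samples of a group came from separate embryos, so p-values measure the spread between samples.

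ErbB receptors pair with each other when a ligand with an EGF-like domain binds, and the pair phosphorylates itself and recruits adaptors of the MAP kinase and PI3 kinase cascades. Erbb2 has no known ligand of its own, Erbb3 has little kinase activity, and Erbb4 is a receptor for neuregulins with an active kinase. In the embryonic subpallium, Erbb4 is known from interneurons that leave the MGE for the cortex, and membrane-bound Nrg1 is known from the lateral ganglionic eminence (LGE), a territory that these cells cross.

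Log2 signals have the array's own 75th percentile as 0, so that a negative value lies under that percentile, and the values of different probes cannot be set against each other. On WT replicates 1 to 4, 76.8%, 76.0%, 76.8% and 79.3% of probes exceeded the background clearly enough to be flagged as well above it. On Nkx2-1cKO replicates 1 to 4 it was 71.7%, 72.4%, 71.1% and 79.5%, so most mutant arrays measured fewer probes than any WT array. Over all probes, dim ones included, the median log2 fold change was -0.10. The part of this in the lower signal of dim receptor probes was not tested. WT replicate 1 stood apart at low signal, where the dimmest of 5 equal groups of probes lay a median of 1.41 above the other arrays, against -0.20 to 0.02 for the other 7. The dimmer receptor probes with a test or a bound are therefore also given without it. The summed level of a marker list is the log2 of the sum of its genes' unlogged signals on an array, so the brightest markers weigh most. WT replicate 4 stood apart in markers of mesenchyme and mural cells, whose summed log2 level was 3.09 there. It was between 1.06 and 1.57 on the other WT arrays and between 1.18 and 1.49 on the Nkx2-1cKO arrays. Nkx2-1 had a log2 fold change of -6.34 in the Nkx2-1cKO (SE, the standard error, 0.11, limma adjusted p = 4.77e-09), which is in the direction the labels give. Its signal was 1.24% of that in WT, and whether 1 or both alleles were recombined was not tested. In dissected tissue, fewer cells of a type and less RNA per cell cannot be told apart.

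Erbb4 was lower and Nrg1 was higher in the Nkx2-1cKO, and no other receptor or neuregulin passed the test. Among the 18 probes, 12 passed the filter of at least 4 arrays well above background and entered the limma fit, in which p-values were adjusted over 31280 probes by the Benjamini-Hochberg method. Lower signal passed at an adjusted p under 0.05 for 1 of these probes, an Erbb4 probe, where 0.614% of all tested probes did, and higher signal for 2, both of Nrg1, where 0.422% did. Taken by gene through the brightest tested probe, 2 of 6 genes passed, against 1.34% of 14447 genes. Among all 18 probes, with or without the filter, every Nkx2-1cKO array lay below every WT array for 4 probes, the 3 of Erbb4 and 1 of Egfr, where this held for 4.03% of all probes. The groups were separated the other way for the 3 probes of Nrg1, where this held for 1.79%. Probes of a gene measure transcripts of that gene on the same arrays and are not replicates of one another.

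**Figure D1:**
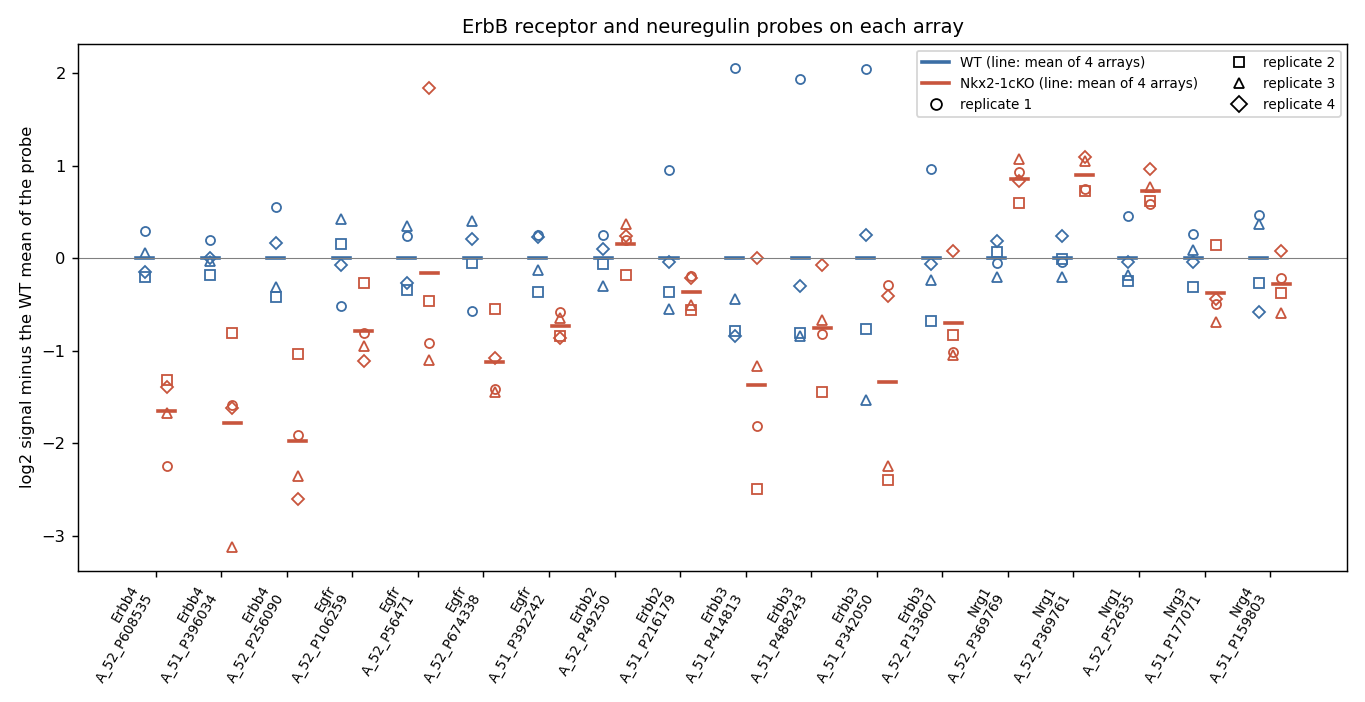
Log2 signal of each of the 18 probes on each array, minus the WT mean of that probe, so that levels of different probes are not compared. Blue symbols are the 4 WT arrays and red symbols the 4 Nkx2-1cKO arrays, the symbol shape gives the replicate, and lines are group means. All red symbols lie below all blue symbols for the 3 Erbb4 probes and all lie above them for the 3 Nrg1 probes, and WT replicate 1 is the highest WT array on the 4 Erbb3 probes.

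Erbb4, the neuregulin receptor of migrating interneurons, was measured by 3 probes. On its brightest probe, A_52_P608535, the log2 signal was -4.55, -5.04, -4.78 and -4.99 on WT replicates 1 to 4. It was -7.08, -6.15, -6.51 and -6.23 on Nkx2-1cKO replicates 1 to 4. The groups did not overlap, and Nkx2-1cKO replicate 1 was the lowest of the 8 arrays. The WT mean was -4.84 ± 0.22 (SD, n = 4) and the Nkx2-1cKO mean -6.49 ± 0.42 (SD, n = 4). All 4 WT arrays and 3 of the 4 Nkx2-1cKO arrays measured it well above background. Erbb4 fell by 1.65 on the log2 scale, to 31.8% of the WT signal, with an SE of 0.28 and a 95% interval from -2.27 to -1.03 (limma adjusted p = 0.0216). The exact two-sided permutation test gave p = 0.0286, which is the lowest value it can give with 4 arrays in each group. Both slides, each with 2 arrays of each group, held the difference, which was -1.53 on slide 1 and -1.78 on slide 2, and with slide as a block the adjusted p was 0.00704 (limma). By size of change, Erbb4 was 54th from the lowest of the 14447 genes, and by p-value (limma) it was 146th. A rank by size takes no account of the spread between arrays, which is wide at low signal.

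The 2 dimmer Erbb4 probes lay near the background of the arrays. On A_51_P396034, the log2 signal was -5.70, -6.08, -5.93 and -5.89 on the WT arrays and -7.48, -6.71, -9.02 and -7.52 on the Nkx2-1cKO arrays. The groups did not overlap, but Nkx2-1cKO replicate 3 lay far below the others and the spread was wide, with a log2 fold change of -1.78 that did not pass (SE 0.50, limma adjusted p = 0.227). Without WT replicate 1 it was -1.71 (limma adjusted p = 0.296). Of the WT arrays 3 measured this probe well above background, and of the Nkx2-1cKO arrays 1 did. The probe thus entered the test mainly through the WT arrays, and the size of its difference was not measured. Nkx2-1cKO replicate 3, at -9.02, lay under that array's lowest signal well above background, -6.88. On A_52_P256090, the signal was -5.54, -6.52, -6.41 and -5.93 in WT and -8.01, -7.13, -8.45 and -8.70 in the Nkx2-1cKO. No Nkx2-1cKO array was well above background there, against 3 WT arrays, so the probe was not tested and gives only a bound. Over those 3 WT arrays, WT was at least 1.51-fold higher. With WT replicate 1, the WT array that was not well above background, the ratio was 1.72, which is not a bound. The bound sets the mean of those WT arrays against a mean over the Nkx2-1cKO arrays. Each Nkx2-1cKO array enters with the probe's own signal or the lowest signal well above background, whichever was higher.

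The size of the Erbb4 difference and its call depended on how the low signals were handled. Normexp background correction as planned gave 0.20 (limma adjusted p = 0.915). It moved the Erbb4 spot of Nkx2-1cKO replicate 1 from 62.5 over its local background, the lowest of all arrays, to 1196, the highest. The other Nkx2-1cKO arrays were at 96.8 to 115.4 after it. On Nkx2-1cKO replicate 1, 6 spots were dimmer than their local background. The call was lost with quantile normalization (log2 fold change -1.23, limma adjusted p = 0.0747) and with the mean of the gene's tested probes (-1.72, limma adjusted p = 0.0563), and 2 forms of normexp background correction chosen after seeing the data, which handle such spots differently, gave -0.62 with adjusted p-values of 0.100 and 0.140 (limma). Without each array in turn the log2 fold change stayed between -1.77 and -1.46, and the adjusted p passed the threshold without WT replicate 1 (-1.56, adjusted p = 0.0338, limma) or Nkx2-1cKO replicate 2 (0.0365, limma) and lay between 0.0508 and 0.0912 without WT replicate 2, 3 or 4 or Nkx2-1cKO replicate 1, 3 or 4. Without WT replicate 4, the array with the high mesenchyme markers, it was -1.70 (limma adjusted p = 0.0733).

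The start of Erbb4 is shown because it is the receptor that passed the test, and that of Erbb2 because it holds the only motif match found, in capitals. Each line gives the 250 bases before the gene's start, 5′ to 3′ on the gene's strand, from RefSeq on GRCm38.p6, which matched 5 of the 8 genes (Egfr, Erbb2, Erbb4, Nrg3 and Nrg4). The Erbb4 stretch lies at chr1:69108060-69108309 on the minus strand and that of Erbb2 at chr11:98412234-98412483 on the plus strand.
Erbb4: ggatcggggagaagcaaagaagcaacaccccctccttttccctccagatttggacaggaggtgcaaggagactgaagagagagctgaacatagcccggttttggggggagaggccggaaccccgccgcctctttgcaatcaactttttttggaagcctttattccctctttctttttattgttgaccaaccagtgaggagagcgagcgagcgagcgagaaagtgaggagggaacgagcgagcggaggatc
Erbb2: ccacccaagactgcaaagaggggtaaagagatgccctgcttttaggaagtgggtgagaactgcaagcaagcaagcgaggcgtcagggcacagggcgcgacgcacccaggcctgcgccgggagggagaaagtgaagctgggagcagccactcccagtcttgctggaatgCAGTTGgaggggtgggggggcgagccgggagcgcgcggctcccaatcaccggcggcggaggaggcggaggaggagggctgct

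Both strands were searched for CACTTG, the core bound by NKX2 factors, TAATTA for LHX factors, TGACAG for MEIS factors, ATGCAAAT for POU factors and CANNTG, the E-box, of which CACTTG is one form. Among 32851 stretches of this length, 11.6% held CACTTG, 4.84% TAATTA, 15.9% TGACAG, 1.60% ATGCAAAT and 66.2% an E-box. The Erbb2 stretch held 1 E-box that starts 82 bases before the gene, and the Erbb4, Egfr, Nrg3 and Nrg4 stretches held none of these letters. These arrays measured no binding, so a match or its absence is a description of the sequence only.

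Nrg1, the neuregulin known from the path of interneurons through the LGE, was measured by 3 probes with the same assigned transcript, all well above background on all 8 arrays. On the brightest, A_52_P369769, the log2 signal was -1.49, -1.37, -1.65 and -1.26 on WT replicates 1 to 4. It was -0.50, -0.84, -0.37 and -0.61 on Nkx2-1cKO replicates 1 to 4. The groups did not overlap, and the Nkx2-1cKO arrays were the higher ones. The WT mean was -1.44 ± 0.17 (SD, n = 4) and the Nkx2-1cKO mean -0.58 ± 0.20 (SD, n = 4). Nrg1 rose by 0.86 on the log2 scale, with an SE of 0.13 and a 95% interval from 0.57 to 1.15 (limma adjusted p = 0.0112), or 1.81-fold. The exact two-sided permutation test again gave the smallest possible p of 0.0286. Slide 1 gave a difference of 0.84 and slide 2 one of 0.88, and the adjusted p with slide as a block was 0.00151 (limma). By size of change, Nrg1 was 71st from the highest of the 14447 genes, and by p-value (limma) it was 114th.

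**Figure D2:**
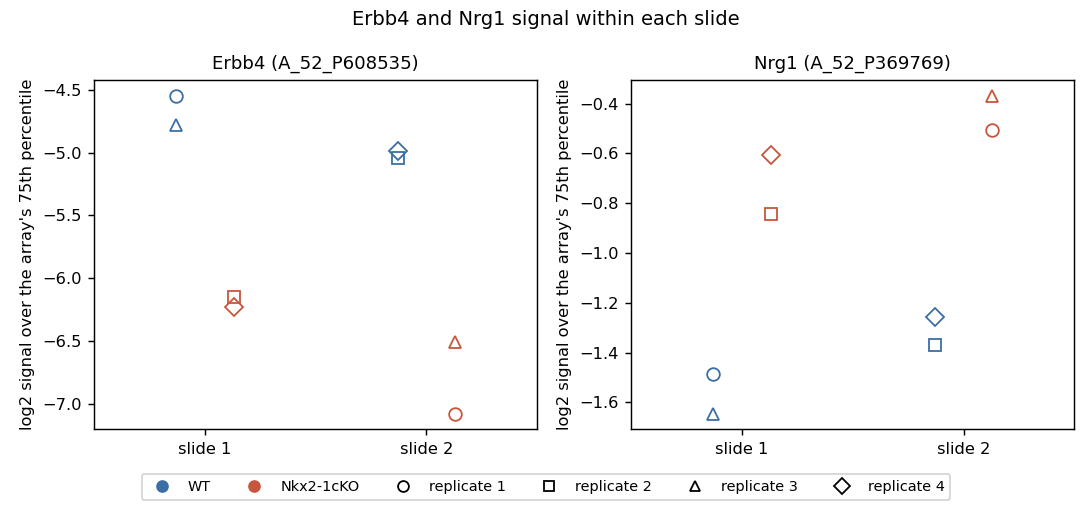
Log2 signal relative to the array's 75th percentile for the brightest Erbb4 probe (left) and the brightest Nrg1 probe (right), split by slide, with WT arrays in blue, Nkx2-1cKO arrays in red and the replicate given by the symbol. On both slides the Nkx2-1cKO arrays lie below the WT arrays for Erbb4 (difference of means -1.53 and -1.78) and above them for Nrg1 (0.84 and 0.88).

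The other Nrg1 probes differed in the same direction. On A_52_P369761, the log2 signal was -2.26, -2.22, -2.42 and -1.98 in WT and -1.47, -1.49, -1.17 and -1.12 in the Nkx2-1cKO, without overlap. This probe rose by 0.91 (SE 0.13, limma adjusted p = 0.0101), and of 19 alternatives it lost the call under the planned normexp (1.01, limma adjusted p = 0.0745) and the replicate block (0.91, limma adjusted p = 0.0989). On A_52_P52635, the signal was -3.39, -4.09, -4.03 and -3.89 in WT and -3.27, -3.23, -3.08 and -2.88 in the Nkx2-1cKO. The groups did not overlap here either, though WT replicate 1 came within reach of the lowest Nkx2-1cKO array, and the log2 fold change of 0.73 did not pass (SE 0.18, limma adjusted p = 0.134). Without WT replicate 1 it was 0.89 and passed (limma adjusted p = 0.0203), as it did under 4 of 19 alternatives in all. The call on the brightest probe was lost without Nkx2-1cKO replicate 1 (log2 fold change 0.83, limma adjusted p = 0.0511) and held without each of the other arrays in turn (adjusted p 0.0118 to 0.0415, limma), including WT replicate 4 (0.92, limma adjusted p = 0.0222).

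Egfr, the receptor for EGF and its relatives, was measured by 4 probes assigned to 2 transcript records, and none passed the test. Its brightest probe, A_52_P106259, printed as 10 spots, had a log2 signal of -4.18, -3.52, -3.24 and -3.74 in WT and -4.48, -3.94, -4.62 and -4.78 in the Nkx2-1cKO. WT replicate 1 lay below the highest Nkx2-1cKO array, so the groups overlapped. The log2 fold change was -0.78, with an SE of 0.25 and a 95% interval from -1.33 to -0.23 before adjustment (limma adjusted p = 0.327). The median SD between the 10 spots on an array was 0.09, well under the SDs of 0.40 and 0.36 between the WT and between the Nkx2-1cKO arrays. Without WT replicate 1 the log2 fold change was -0.95 (limma adjusted p = 0.137).

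The other Egfr probes were dimmer. A_52_P674338 was assigned to the same record as the brightest probe, and A_52_P56471 and A_51_P392242 to the other record. A_52_P674338 had a log2 fold change of -1.12 (SE 0.35, limma adjusted p = 0.314), with WT arrays between -6.29 and -5.32 and Nkx2-1cKO arrays between -7.16 and -6.26, and -1.31 without WT replicate 1 (limma adjusted p = 0.108). A_52_P56471 had a log2 fold change of -0.16 (SE 0.58, limma adjusted p = 0.936), with Nkx2-1cKO replicate 4 at -3.33, above all other arrays, and the remaining Nkx2-1cKO arrays between -6.27 and -5.64, and -0.08 without WT replicate 1 (limma adjusted p = 0.992). The sign on this probe turned under 7 of 19 alternatives. A_51_P392242, also printed as 10 spots, had no Nkx2-1cKO array well above background and 3 WT arrays that were. Its WT arrays lay between -6.66 and -6.04 and its Nkx2-1cKO arrays between -7.16 and -6.88, without overlap. By the same bound, WT was at least 1.41-fold higher over the 3 WT arrays well above background. With WT replicate 1, the WT array that was not, the ratio was 1.50, which is not a bound.

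Erbb2, the partner receptor without a ligand of its own, had 1 probe with a slightly higher and 1 with a slightly lower mean, and neither passed. On A_52_P49250, printed as 10 spots, the log2 signal was -1.74, -2.04, -2.29 and -1.88 in WT and -1.79, -2.17, -1.61 and -1.75 in the Nkx2-1cKO. The groups overlapped over most of their range, and the log2 fold change of 0.16 had a 95% interval from -0.19 to 0.51 (limma adjusted p = 0.737). The median SD between its spots was 0.06, against 0.24 between the arrays of either group. The dimmer probe, A_51_P216179, had a log2 fold change of -0.36 with an interval from -1.11 to 0.39 (limma adjusted p = 0.723). WT replicate 1 was at -4.39 on this probe, above the other 7 arrays, which lay between -5.90 and -5.39, and without it the log2 fold change was -0.05 (limma adjusted p = 0.979).

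Erbb3, the neuregulin receptor with little kinase activity that is known from Schwann cells and their neural crest precursors, gave low signals. On A_51_P414813, the only tested probe, the log2 signal was -3.97, -6.81, -6.47 and -6.87 on WT replicates 1 to 4 and -7.85, -8.52, -7.20 and -6.03 on Nkx2-1cKO replicates 1 to 4. WT replicate 1 stood well above the 7 other arrays, and the other WT arrays overlapped the Nkx2-1cKO arrays. The log2 fold change was -1.37 (SE 0.75, limma adjusted p = 0.635) with all arrays and -0.68 without WT replicate 1 (limma adjusted p = 0.840). The probe was well above background on each of the 4 WT arrays and on just 1 Nkx2-1cKO array, so the probe entered the test through the WT arrays.

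WT replicate 1 was also the highest array on the other Erbb3 probes, at -4.51 on A_51_P488243, where the remaining arrays lay between -7.90 and -6.52, and at -4.48 on A_51_P342050, where they lay between -8.92 and -6.27. The fourth probe, A_52_P133607, was not well above background in either group. Of the list of Schwann cell and neural crest markers, 4 genes were tested and none passed, with 1 at an unadjusted p under 0.05 (limma), and Sox10 had no matched probe. The summed level of the 5 markers with a probe was between 0.43 and 0.64 in WT and between 0.16 and 0.37 in the Nkx2-1cKO on the log2 scale, with WT replicate 1 at 0.51. WT replicate 1 thus lay inside the WT range of this sum, in which a rise of the dimmer markers could go unseen. The part of such cells in the Erbb3 signal of this array was not tested.

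Nrg3, a neuregulin that binds Erbb4, had 1 probe, which was well above background on all arrays. Its log2 signal was -3.16, -3.73, -3.33 and -3.46 in WT and -3.92, -3.28, -4.11 and -3.86 in the Nkx2-1cKO. Nkx2-1cKO replicate 2 lay within the WT range while the other 3 lay below it. The log2 fold change was -0.37, with a 95% interval from -0.83 to 0.08 (limma adjusted p = 0.632). Nrg4, another Erbb4 ligand, was not tested, since only 2 WT arrays and 1 Nkx2-1cKO array measured it well above background. Its WT signals lay between -7.23 and -6.19 and its Nkx2-1cKO signals between -7.24 and -6.57, so the groups overlapped.

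**Figure D3:**
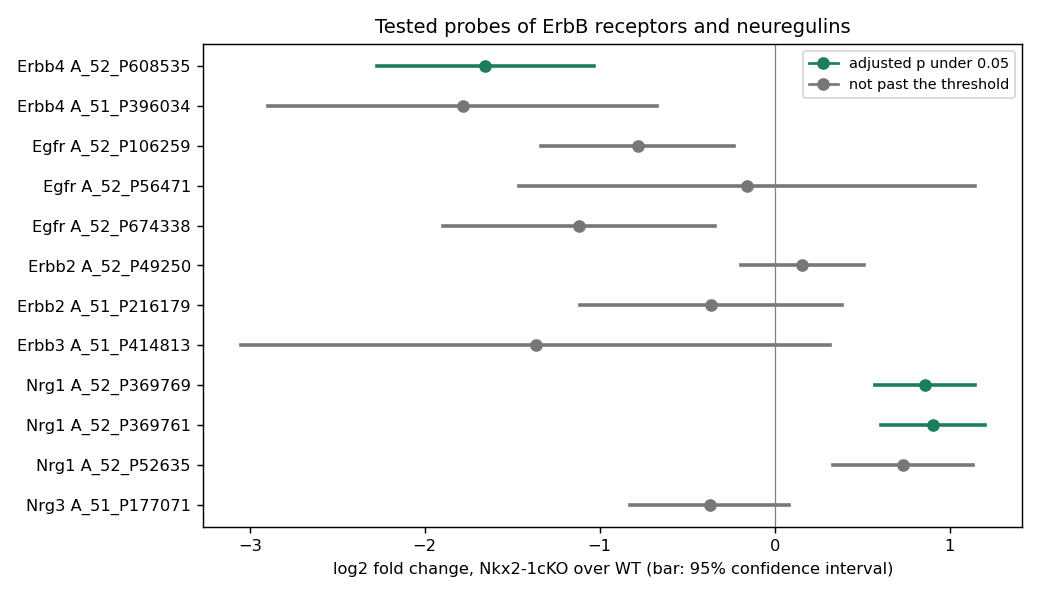
Log2 fold change of the 12 tested probes, Nkx2-1cKO over WT, with 95% confidence intervals that are not adjusted for the number of probes, in green where the adjusted p was under 0.05. One Erbb4 probe (-1.65) and 2 Nrg1 probes (0.86 and 0.91) are green, and the interval is widest for Erbb3, from -3.05 to 0.32.

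Markers of MGE-derived neurons and some markers of the LGE moved beside Erbb4 and Nrg1. Of 13 tested markers of MGE-derived neurons, 10 were lower in the Nkx2-1cKO, where 0.851% of all genes were, with a median log2 fold change of -1.73 against 0.00 over all genes. Their summed level was between 6.17 and 6.26 on the log2 scale in WT and between 4.44 and 4.62 in the Nkx2-1cKO. Of 12 tested markers of the LGE and the caudal ganglionic eminence, 4 were higher, where 0.491% of all genes were, namely the LGE transcription factors Meis2, Isl1, Ebf1 and Zfp503. None of the others passed, among them Nr2f1, Nr2f2, Sp8 and Prox1 of the caudal ganglionic eminence. The median over the 12 was 0.38, with 10 positive and 2 negative changes. Their summed level was between 5.42 and 5.82 in WT and between 6.30 and 6.46 in the Nkx2-1cKO. Each of the 4 WT arrays measured all 13 MGE markers well above background. The part of either list in the Erbb4 or Nrg1 difference was not tested.

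Markers shared by GABAergic neurons did not pass in either direction (0 of 8, 4 at an unadjusted p under 0.05, limma), and their summed level was between 6.54 and 6.70 in WT and between 6.44 and 6.68 in the Nkx2-1cKO. Of 5 tested markers of oligodendrocyte precursors, Olig1, Pdgfra and Gpr17 were lower, and the summed level was between 1.88 and 2.10 in WT and between 1.36 and 1.60 in the Nkx2-1cKO. No gene passed among the tested markers of the pallium (8), radial glia (8), endothelium (6), mesenchyme (7), erythroid cells (6) or microglia (6), with 0, 2, 0, 1, 0 and 0 of them at an unadjusted p under 0.05 (limma). The 1 mesenchyme marker, named after its values were seen, was Dcn, a matrix proteoglycan, at -2.45 (limma adjusted p = 0.526), with WT replicate 4 at 0.56, above the other 7 arrays. The summed levels in WT and in the Nkx2-1cKO were 3.74 to 4.08 and 3.42 to 4.19 for the pallium, 6.92 to 7.22 and 6.81 to 7.07 for radial glia, 2.81 to 3.33 and 2.97 to 3.28 for endothelium and 7.48 to 7.96 and 7.47 to 8.05 for erythroid cells, and that of microglia was between 1.08 and 1.24 over all 8 arrays. The part of mesenchyme in the differences of the receptors and neuregulins was not tested beyond leaving out WT replicate 4.

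The genes whose signal over the 8 arrays was most like that of Erbb4 were Col19a1, a collagen (Pearson's r = 0.986), Lypd6 (0.983) and Sel1l3 (0.975). Col19a1 fell by 0.73 and Lypd6 by 1.12 on the log2 scale (adjusted p = 0.0459 and 0.00562, limma), and Sel1l3 had a log2 fold change of -0.35 (limma adjusted p = 0.171). For Nrg1 they were Ass1, an enzyme of arginine synthesis (0.993), Dlk1, a transmembrane protein related to Notch ligands (0.989), and Six3, a homeobox factor of the anterior forebrain (0.986). These genes rose by 1.02, 0.80 and 0.99 (adjusted p = 0.00872, 0.0301 and 0.00326, limma). The 8 points share their arrays and the split into groups, and 108 genes correlated above 0.9 with Erbb4 and 128 with Nrg1.

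No other gene of the ErbB pathway passed the test. A total of 67 genes were listed by function, of which 60 were tested, and 0 were higher and 0 lower, with 10 at an unadjusted p under 0.05 (16.7%, against 9.51% of all genes, limma). The median log2 fold change was -0.05, beside 0.00 over all genes, and the values ran from -1.06 to 0.32.

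Of the other ErbB ligands, 4 of 7 were tested, with a median of -0.10, from -0.16 for Tgfa to 0.03 for Hbegf. Areg, Ereg and Btc were too dim to be tested. The 3 genes for EGF-like transmembrane proteins related to neuregulins had a median of -0.12, with Tmeff1 at -0.19 and Cspg5, also called neuroglycan C, at 0.29 (limma adjusted p = 0.378). The 5 tested genes for proteases that release or cut ligands and receptors had a median of 0.03, from -0.10 for Bace1, the protease that cleaves Nrg1, to 0.27 for Adam19.

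Among 8 tested genes listed as negative regulators the median was -0.04. Lrig3, a membrane protein listed here beside its relatives Lrig1 and Lrig2, had the largest difference at -0.51 (SE 0.12, limma adjusted p = 0.124). It passed with slide as a block (limma adjusted p = 0.0373) and without Nkx2-1cKO replicate 1 (-0.61, limma adjusted p = 0.0465). Whether Lrig3 limits ErbB signalling in these cells was not tested. Wwp1, a ubiquitin ligase, was at 0.09.

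The 24 adaptors and kinases downstream of the receptors had a median of -0.04, from -0.30 for Vav3 to 0.17 for Map2k2, and 5 of them had an unadjusted p under 0.05 (limma), among them Vav2, Vav3, Gab1 and Akt1. The 7 scaffolds and partners of the receptors' intracellular parts had a median of 0.14, from -0.24 for Erbin, which binds Erbb2, to 0.32 for Dlg4, a synaptic scaffold that binds Erbb4.

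Of the 9 genes that respond early to MAP kinase signalling, the median was -0.10 and the highest was Junb at 0.12. Egr2 had a log2 fold change of -1.06 (SE 0.29, limma adjusted p = 0.216), which passed without a variance trend (limma adjusted p = 0.0490) and was -0.92 without WT replicate 1 (limma adjusted p = 0.191). All 4 WT arrays and just 1 Nkx2-1cKO array measured it well above background. Egr1 and Fos, named after their values were seen as the others of this list with an unadjusted p under 0.05 (limma), were at -0.53 and -0.57 (adjusted p = 0.113 and 0.517, limma).

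**Figure D4:**
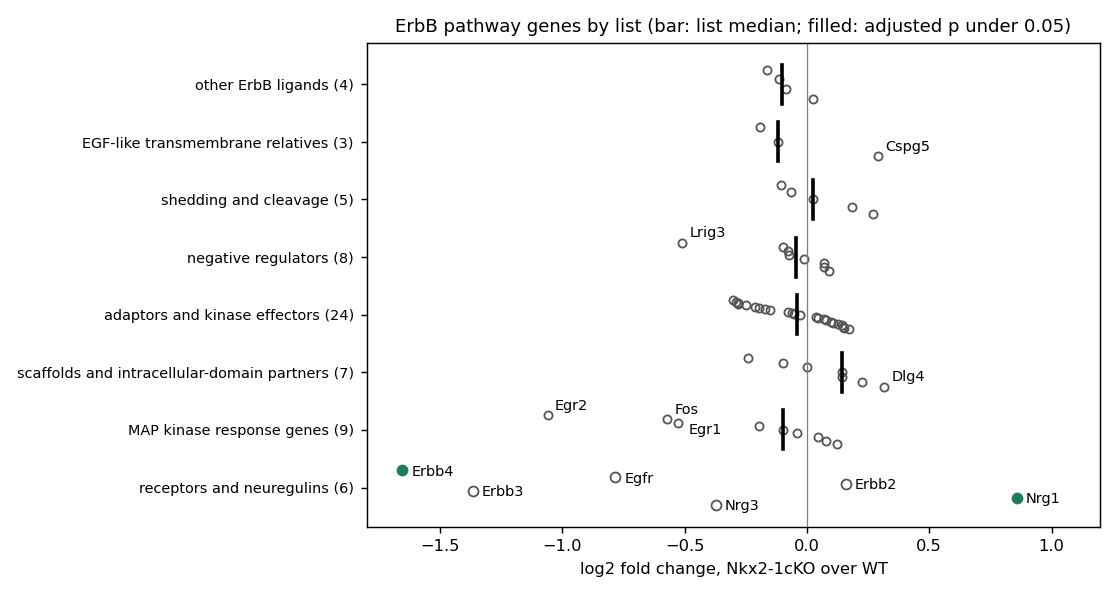
Log2 fold change, Nkx2-1cKO over WT, of the 60 tested pathway genes by list, each gene by its brightest tested probe, with the number tested in brackets, list medians as black bars, and the 6 tested receptors and neuregulins in the bottom row. Filled green points, Erbb4 and Nrg1, had an adjusted p under 0.05, and most open points lie within 0.32 of 0, with Egr2 at -1.06 the farthest of the pathway genes.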

How the data were processed

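RNA from microdissected MGE was hybridised to 1-colour arrays scanned with Agilent Feature Extraction, version 10.7.3.1 per the file headers and 10.1 per the submitters' processing notes. The authors deposited background-subtracted, detrended spot intensities that are not scaled between arrays, beside raw median intensities and spot flags. No spot was saturated. Here, control and outlier spots were dropped, the log2 of each array's 75th percentile was subtracted from the log2 intensity, and a probe's spots were averaged. A probe was well above background on an array where at least a share of 0.5 of its spots was so flagged, and was tested where this held on at least 4 of 8 arrays (31280 probes, 50 missing values). Of 41174 probes, 24844 were matched by accession to 17178 symbols in a RefSeq table of GRCm38.p6. The array design was built on another assembly, so no coordinates were taken from that table for the probes, and the coordinates printed for stretches before gene starts are those RefSeq's promoter sequences carry on GRCm38.p6. Groups were compared in R 4.3.3 with limma 3.58.1 (lmFit, then eBayes with trend), p-values were adjusted by Benjamini-Hochberg with 0.05 as threshold, and single probes had an exact two-sided permutation test. The number of arrays limits the precision. In simulated data for this comparison over 31280 probes, where 200 probes were changed by 1 (log2), the fit recovered 64% of them and 2 of its 130 calls were false. The simulated noise was normal and independent between probes and arrays, with no slide effect and no shift of WT replicate 1. These rates may therefore differ from those of the real arrays, and none was worked out for dim probes.

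A gene is represented by its brightest tested probe. The genes named are all members, Nkx2-1, of each pathway list those that passed and the largest change in each direction, the 3 genes most like Erbb4 and Nrg1, and the markers that say whether a list moved. The members and lists were chosen with earlier results of these data known. Alternatives were normexp with an offset of 50, quantile normalization, median centring, other filters (none, or the brightest 75% of probes), a block for slide or replicate number, array weights, no variance trend, the mean over probes, and each array left out in turn. Deviations from the group means of same-numbered arrays correlated at -0.481 to -0.194. Same-numbered WT and Nkx2-1cKO arrays always lay on different slides, so this check cannot tell whether replicate numbers pair samples. The labels' genotypes and the methods differ, and samples were grouped by the labels. The chromatin experiments of the study were not analysed here. Some results for single genes of the lists are not reported here.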

Additional observations from a re-analysis of the deposited data

Results flagged for a closer look

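On the tested Erbb3 probe A_51_P414813, WT replicate 1 had a log2 signal of -3.97, while the other WT arrays lay between -6.87 and -6.47, so its gap to the nearest array was large for a group of 4. This was the only such array among 36 groups of 4 examined over the 18 probes, where 1.8 would be given by chance at 1 in 20. The same array was raised on dim probes in general, while the summed level of the Schwann cell and neural crest markers was 0.51 there, inside the WT range of 0.43 to 0.64. The cause was not tested.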

How the results depend on the processing

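Over the 20 alternatives that could be run, Nrg1 stayed higher (0.79 to 0.99) and lost its call with the replicate block (adjusted p = 0.163 for a log2 fold change of 0.86) and without Nkx2-1cKO replicate 1 (0.83), with 0.79 to 0.95 on leaving out 1 array. Erbb4 stayed lower in all but one and kept its call in 8. It lost the call under quantile normalization (-1.23), the replicate block (-1.65, adjusted p = 0.249) and the mean of probes (-1.72), and under normexp without spots dimmer than their background and normexp on negative control spots (both -0.62), which were chosen after seeing the data. Leaving out 1 array gave -1.77 to -1.46. The replicate block thus left 0 member genes in either direction, and whether the numbers pair the samples could not be told.

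The planned normexp on the median signal turned Erbb4 to 0.20, Egfr to 0.074, Erbb3 to 0.46, Nrg3 to 0.29, Egfr A_52_P674338 to 0.48, Erbb2 A_51_P216179 to 0.58 and Erbb4 A_51_P396034 to 0.46, none past the threshold. On Nkx2-1cKO replicate 1, 6 spots were dimmer than their local background, and this correction raised the median of that array from 214.5 to 1299, against 340 to 353.6 on WT replicate 1. Without those spots in the fit, these 7 values kept their sign. Egfr A_52_P56471 turned to 0.30 with quantile normalization, 0.82 with normexp, 0.061 and 0.099 with its added forms and 0.064 with array weights, and lay between -0.82 and 0.16 on leaving out 1 array, above 0 without Nkx2-1cKO replicate 1 or 3. Erbb2 turned to -0.10 with the mean of probes.

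Of all probes, 132 were higher and 192 lower. The counts were 63 and 90 with normexp, 8 and 65 with the replicate block, 209 higher with slide as a block, 87 higher without a variance trend, 115 lower with centring on the median and 291 lower with array weights, and leaving out 1 array gave 65 to 118 higher and 130 to 174 lower. The count of member genes lower was 0 under quantile normalization, all 3 forms of normexp and the mean of probes, and 0 to 1 on leaving out an array. The count higher was 1 under quantile normalization, all 3 forms of normexp and the mean of probes, and 0 to 1 on leaving out an array. The count of pathway genes lower was 1 (Lrig3 or Egr2) with slide as a block, without a variance trend and on leaving out Nkx2-1cKO replicate 1, and otherwise 0. The median over the tested probes moved from -0.04 to 0.09 with centring on the median and 0.20 with normexp. With no filter on dim probes it was -0.10. Counting probes named only by the files' own gene names was not run, as the files used hold no such column. Signal over background limits Erbb3, Nrg4 and the dimmer Erbb4 and Egfr probes. It also limits the brightest Erbb4 probe in the Nkx2-1cKO. There replicate 1, at -7.08, lay under that array's lowest signal well above background, -6.75.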
